A study of Mus musculus with 9 samples.

Results

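The genes described here were the 6 Ifit genes of the mouse, Ifit1, Ifit1bl1, Ifit1bl2, Ifit2, Ifit3 and Ifit3b. They were picked by gene symbol from a deposited table of 31167 genes. Of the genes in the table, 29404 had a value above 0 in some library and 13985 had enough signal to be tested. RNA sequencing covered 9 libraries of primary renal tubular epithelial cells from C57BL/6 mice, 3 libraries in each of 3 groups. Sham cells were the untreated controls. H/R cells were kept for 6 h under 1.0% oxygen without glucose and were then returned to normal culture for 18 h. EGR1OV cells received an expression plasmid that drives the transcription factor Egr1 from the CMV promoter, introduced with a lipid transfection reagent. No group with empty plasmid was among the 9 libraries, so plasmid DNA, transfection reagent and Egr1 protein cannot be told apart as the difference between EGR1OV and Sham. Both comparisons used the same 3 Sham libraries. The labels do not say that the libraries of a group came from separate cultures or animals, so p-values measure the spread between these samples only, which may be technical.

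IFIT proteins are built from tetratricopeptide repeats and sit in the cytosol, where they bind RNA. IFIT1 recognises messenger RNA whose cap lacks the ribose methylation of the cell's own transcripts and keeps it from being translated, and IFIT family members can also bind the translation initiation factor eIF3. The genes are nearly silent in resting cells and are among the transcripts most strongly raised by type I interferon, through a factor complex that includes STAT2 and IRF9 at the interferon-stimulated response element (ISRE), or directly by interferon regulatory factors once viral RNA or cytosolic DNA is sensed. In tubular epithelium, as in most cell types, they serve as a readout of that antiviral program.

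All 6 genes lie together on chromosome 19 (GRCm38), in a stretch of 99.3 kb with 4 genes on the plus strand and 2 on the minus strand. In the order of the chromosome they are Ifit2 (34550694 to 34576419, plus), Ifit3 (34583531 to 34588731, plus), Ifit1bl1 (34592888 to 34601968, minus), Ifit3b (34607970 to 34613401, plus), Ifit1bl2 (34617049 to 34640743, minus) and Ifit1 (34640871 to 34650009, plus). Ifit1 and Ifit1bl2 are arranged head to head, with 128 bp between their annotated starts. Their Ensembl identifiers are ENSMUSG00000045932 for Ifit2, ENSMUSG00000074896 for Ifit3, ENSMUSG00000079339 for Ifit1bl1, ENSMUSG00000062488 for Ifit3b, ENSMUSG00000067297 for Ifit1bl2 and ENSMUSG00000034459 for Ifit1.

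RefSeq (GRCm38.p6) gives a window around the transcription start, from 250 bases before it to 50 bases after it, for all 6 genes. The 9 windows, some genes having more than 1 start, were searched on both strands for the ISRE core GAAANNGAAA, for the gamma-activated site GAS (TTCNNNGAA) and for the EGR1 site GCGNGGGCG. The windows shown were chosen with the levels of the genes known, and no link between cores and levels was tested. They are those of the 3 plus-strand genes that held a pair of ISRE cores, with 1 window of Ifit1bl1, which held a single core. Each is read 5′ to 3′ on the gene's own strand, and the capitals mark the ISRE core, which here runs on the opposite strand and so appears as its reverse complement.
Ifit1, chr19:34640639-34640938, plus strand: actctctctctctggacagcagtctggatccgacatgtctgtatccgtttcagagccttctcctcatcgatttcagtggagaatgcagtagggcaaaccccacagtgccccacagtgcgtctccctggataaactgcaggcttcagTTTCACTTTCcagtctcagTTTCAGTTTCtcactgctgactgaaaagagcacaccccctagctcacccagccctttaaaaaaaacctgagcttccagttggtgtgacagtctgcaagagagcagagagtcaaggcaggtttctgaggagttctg
Ifit3, chr19:34583279-34583578, plus strand: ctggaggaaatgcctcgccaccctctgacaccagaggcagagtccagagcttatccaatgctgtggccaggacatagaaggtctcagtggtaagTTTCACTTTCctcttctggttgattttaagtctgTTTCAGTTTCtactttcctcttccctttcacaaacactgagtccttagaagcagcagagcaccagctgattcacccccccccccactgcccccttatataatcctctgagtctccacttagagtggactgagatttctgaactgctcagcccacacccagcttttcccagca
Ifit3b, chr19:34607707-34608006, plus strand: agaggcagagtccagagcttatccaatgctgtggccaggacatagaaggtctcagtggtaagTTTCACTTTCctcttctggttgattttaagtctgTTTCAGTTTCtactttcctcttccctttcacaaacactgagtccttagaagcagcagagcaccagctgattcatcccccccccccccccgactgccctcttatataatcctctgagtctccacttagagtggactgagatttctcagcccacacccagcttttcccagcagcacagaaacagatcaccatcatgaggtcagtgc
Ifit1bl1, chr19:34601919-34602218, minus strand: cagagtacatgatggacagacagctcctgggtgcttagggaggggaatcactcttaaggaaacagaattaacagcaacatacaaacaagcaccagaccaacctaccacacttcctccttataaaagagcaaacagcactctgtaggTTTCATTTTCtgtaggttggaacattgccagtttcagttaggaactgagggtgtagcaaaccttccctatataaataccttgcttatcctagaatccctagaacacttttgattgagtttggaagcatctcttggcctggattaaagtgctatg

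The Ifit1 window held ISRE cores at -104 to -95 and at -85 to -76, counted in bases from its start. The same pair of cores counts for Ifit1bl2, because the window of its upstream start (chr19:34640694-34640993) shares 245 bases with that of Ifit1. Seen from Ifit1bl2, they lie at -51 to -42 and at -70 to -61, and both genes thus face the same short stretch of DNA from opposite sides. A second Ifit1bl2 window, at a start inside the gene (chr19:34629762-34630061), held none.

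The windows of Ifit3 and Ifit3b are near copies of each other, identical at 258 of 260 aligned bases (99.2%), and hold the same pair of cores, at -156 to -147 and at -122 to -113 in Ifit3 and at -188 to -179 and at -154 to -145 in Ifit3b. Ifit1bl1 held 1 core, TTTCATTTTC, in each of its 2 windows. Neither Ifit2 window held an ISRE core, and 1 of them held a GAS match at -241 to -233. No GAS match overlapped an ISRE core in these windows. No Ifit window held the EGR1 site. Over all 32851 RefSeq windows of this length, from 27025 genes, an ISRE core was present in 3.44%, at least 2 ISRE cores in 0.225%, a GAS match in 8.3% and the EGR1 site in 5.55%. Such a match describes letters in a window and is not a measured binding site.

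Values are FPKM, fragments scaled to the length of the transcript and to the mapped fragments of the library. Because FPKM are per length, they can be compared between genes. The steps between low FPKM values gave back the number of reads behind them, and total depth came to between 16183469 and 18383926 reads a library, the deepest being 1.14 times the shallowest. Egr1 lay between 6.09 and 6.91 FPKM in the Sham libraries, between 7.48 and 8.57 after H/R and between 40.1 and 45.7 with the plasmid, so the EGR1OV libraries were the ones high in Egr1, as labelled. Among the tubule markers listed, Umod of the thick ascending limb was at 0 in every library. The proximal tubule phosphate carrier Slc34a1 was at 0 in EGR1OV and at 0.00434 and 0.0209 FPKM on average in Sham and H/R. Lrp2, or megalin, of the proximal tubule brush border averaged 3.6 FPKM in Sham libraries, 3.44 FPKM after H/R and 1.22 FPKM with the plasmid. The summed level of 12 tubule markers was 1893 to 1931 FPKM in Sham libraries, 1749 to 1828 after H/R and 1232 to 1336 with the plasmid, most of it from the keratins Krt8 and Krt18. Of 8 tested tubule markers, 1 was called higher in EGR1OV than in Sham (Epcam, 76.2 to 100.4 FPKM) and 3 lower (Krt8, Krt18 and Lrp2). The other 4 tubule markers were expressed and not called. They were Cdh1 (86.2 FPKM in Sham and 101.5 in EGR1OV), Pax2 (14.6 and 19.1), Pax8 (13.1 and 13.5) and Cdh16 (24.3 and 19.6). Cdh1, Pax2 and Cdh16 had an adjusted p of 3.44e-05, 0.000431 and 0.000171 by limma and missed only the 1.3-fold required. In bulk RNA, fewer cells of a type and less RNA per cell cannot be told apart.

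In Sham cells the family was low and uneven. Ifit2, which binds AU-rich RNA and is tied to apoptosis, led with 6.44, 6.73 and 6.65 FPKM (6.61 ± 0.15 SD, n = 3). Ifit3, which partners other IFIT proteins, followed with 4.32, 4.40 and 4.17 FPKM (4.3 ± 0.121). These were the 2 members with a clear baseline, each backed by at least 120 reads in every Sham library.

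The other 4 rested on few reads in Sham, 49 at the most. Ifit3b, the near copy of Ifit3, was at 0.882, 1.41 and 0.545 FPKM (0.944 ± 0.433). Ifit1, the cap sensor, was at 0.641, 0.648 and 0.319 FPKM (0.536 ± 0.188), from 14 to 30 reads. The third Sham library was thus the lowest for both genes.

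The Ifit1-like paralogs, whose own roles are less well known, were lower still. Ifit1bl1 was at 0.134, 0.101 and 0.213 FPKM (0.149 ± 0.0577). Ifit1bl2 was at 0.0722, 0.0341 and 0.144 FPKM (0.0834 ± 0.0558), from 2 to 8 reads, the second Sham library being under the detection floor of 3 reads. For both, the third Sham library was the highest, opposite to Ifit1 and Ifit3b, at numbers of reads too small for an order to be read from it.

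Ranked by mean FPKM among all genes, Ifit2 was at place 6366 in Sham and Ifit1bl2 at place 19094, and the span from the highest to the lowest member was 79.2-fold. Neighbours in the order differed by more than their spread, with no overlap of the 3 libraries, between Ifit2 and Ifit3 (1.54-fold), Ifit3 and Ifit3b (4.55-fold) and Ifit1 and Ifit1bl1 (3.59-fold). Ifit3b and Ifit1 overlapped (exact permutation p = 0.3), and so did Ifit1bl1 and Ifit1bl2 (exact permutation p = 0.3). An exact permutation test of 3 against 3 libraries cannot go below 0.1.

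**Figure D1:**
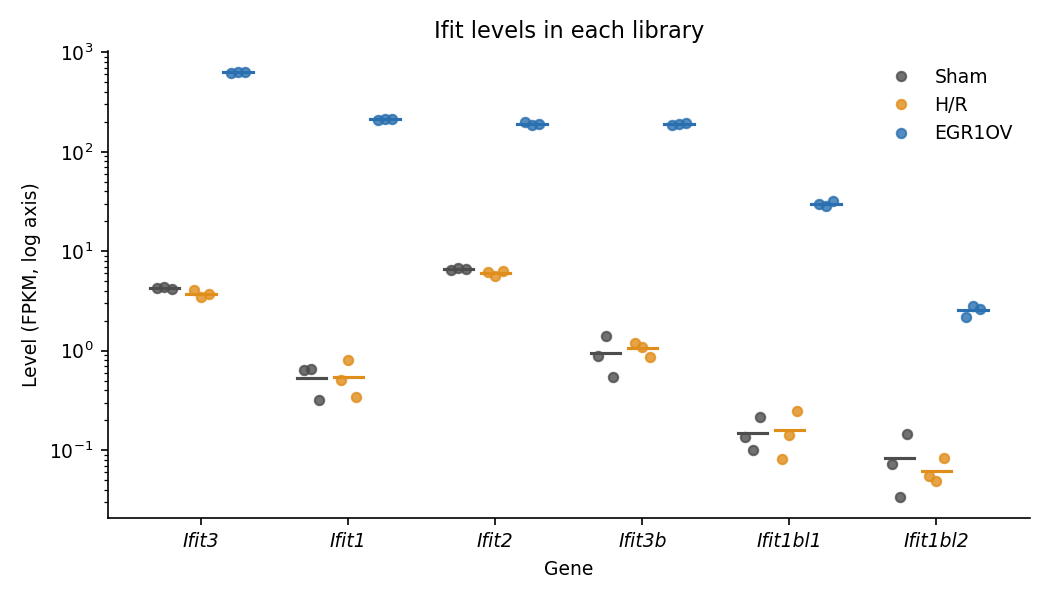
FPKM of each Ifit gene in each library on a log axis, with Sham, H/R and EGR1OV as colours, a point for each library and a bar at the mean of 3. Sham and H/R points lie together for every gene, whereas all EGR1OV points lie far above them, from 2.2 FPKM for Ifit1bl2 to 635.1 FPKM for Ifit3.

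In EGR1OV cells every member of the family rose, by 29.0-fold for Ifit2 at the least and by 397.8-fold for Ifit1 at the most. Ifit3 reached 619.3, 635.1 and 630.8 FPKM (628.4 ± 8.19), the level of place 37 among all genes. Ifit1 reached 209.6, 214.8 and 215.3 FPKM (213.3 ± 3.19), place 158. These genes had been at places 8062 and 13756 in Sham.

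Ifit2 and Ifit3b ended at nearly the same level. Ifit2 was at 199.8, 184.5 and 190.4 FPKM (191.6 ± 7.72), and Ifit3b at 184.9, 191.9 and 197.0 FPKM (191.2 ± 6.04). In Sham they had been at 6.61 and 0.944 FPKM without overlap, whereas in EGR1OV their libraries overlapped (exact permutation p = 1.0).

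The Ifit1-like paralogs stayed the lowest. Ifit1bl1 reached 29.6, 28.5 and 32.2 FPKM (30.1 ± 1.87). Ifit1bl2 reached 2.2, 2.82 and 2.65 FPKM (2.55 ± 0.319), so that at its highest it remained under the Sham level of Ifit2 and of Ifit3. No EGR1OV library overlapped a Sham library for any of the 6 genes.

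As a ratio of mean FPKM, with the 95% interval that the number of reads allows (exact binomial, counting error only), the rise over Sham was 397.8-fold for Ifit1 (314.7 to 506.8), 202.6-fold for Ifit3b (164.3 to 248.0), 201.8-fold for Ifit1bl1 (125.8 to 346.7), 146.2-fold for Ifit3 (132.1 to 162.2), 30.6-fold for Ifit1bl2 (18.2 to 57.1) and 29.0-fold for Ifit2 (27.4 to 30.7). On counting error alone, the interval of Ifit1 lay above those of Ifit3, Ifit3b, Ifit1bl2 and Ifit2, and it overlapped that of Ifit1bl1. The intervals of Ifit1bl2 and Ifit2 lay below all others and overlapped each other. Spread between libraries is left out of them, and in Sham the coefficient of variation was 35.0% for Ifit1 and 45.9% for Ifit3b. The order of the rises among Ifit1, Ifit3b, Ifit1bl1 and Ifit3 was therefore not tested. The member with the highest baseline, Ifit2, therefore had the smallest ratio together with Ifit1bl2, which had the lowest baseline.

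All 6 genes were called higher by limma on log2(FPKM + 1), against 9.87% of all genes tested that were called higher and 6.51% called lower in this comparison. The calls required an adjusted p under 0.05 and at least 1.3-fold. The log2 change was 7.13 (SE 0.11, adjusted p = 9.16e-11) for Ifit1, 6.89 (SE 0.048, adjusted p = 2.02e-12) for Ifit3, 6.65 (SE 0.14, adjusted p = 4.17e-10) for Ifit3b, 4.76 (SE 0.072, adjusted p = 7.51e-11) for Ifit1bl1, 4.66 (SE 0.043, adjusted p = 5.81e-12) for Ifit2 and 1.71 (SE 0.088, adjusted p = 3.48e-07) for Ifit1bl2. On this scale the change of a gene that starts below 1 FPKM is understated, and the values for Ifit1, Ifit3b, Ifit1bl1 and Ifit1bl2 fell short of the log2 of their ratios (8.64, 7.66, 7.66 and 4.94). Ifit1bl1 and Ifit1bl2 reached the tested set, a mean of at least 0.5 FPKM, through the EGR1OV libraries alone. Their calls are therefore no separate support for the levels given. For each of the 6 the exact permutation p of EGR1OV against Sham was 0.1, the smallest possible, and 31.0% of all genes tested had 3 EGR1OV libraries above 3 Sham libraries.

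**Figure D2:**
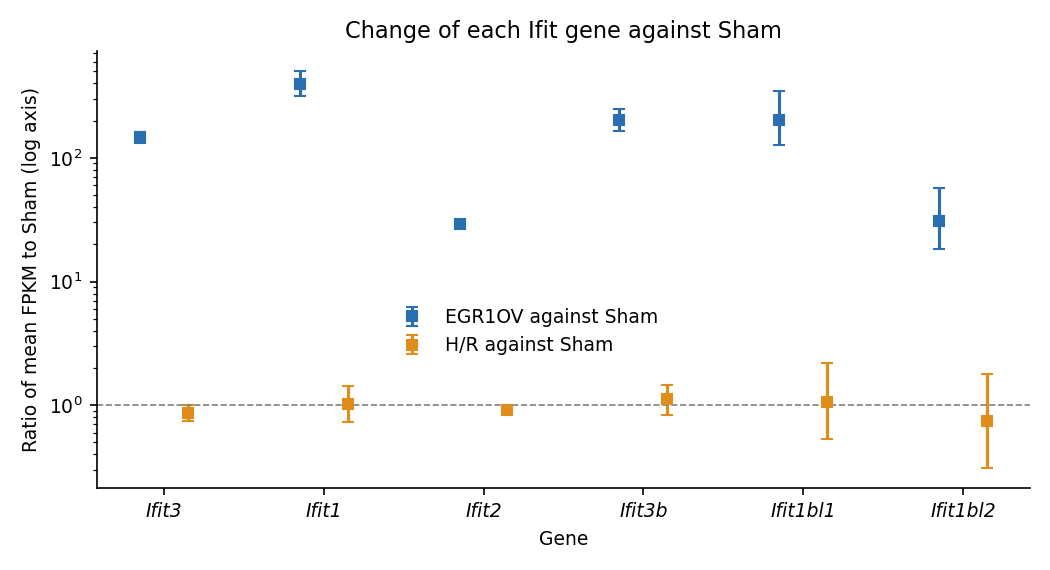
Ratio of mean FPKM to Sham for each Ifit gene on a log axis, EGR1OV and H/R as separate points, with 95% exact intervals from pooled reads as bars. The EGR1OV ratios run from 29.0 for Ifit2 to 397.8 for Ifit1, and the H/R ratios lie between 0.748 and 1.12.

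H/R cells showed none of this. Ifit1 was at 0.512, 0.799 and 0.34 FPKM (0.55 ± 0.232), 1.03 times Sham with a counting interval of 0.737 to 1.44. Ifit3b was at 1.2, 1.09 and 0.874 FPKM (1.06 ± 0.168), 1.12 times Sham (0.832 to 1.47). Both overlapped their Sham libraries.

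Ifit1bl1, at 0.0815, 0.143 and 0.248 FPKM, was at 1.06 times Sham (0.53 to 2.2). Ifit1bl2, at 0.0551, 0.0485 and 0.0837 FPKM, was at 0.748 times Sham (0.311 to 1.79). With intervals this wide, a smaller difference in these genes was not detectable at this depth.

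The members with a measurable baseline were slightly lower. Ifit2 was at 6.23, 5.69 and 6.33 FPKM (6.09 ± 0.343), 0.921 times Sham (0.85 to 0.994). Ifit3 was at 4.11, 3.43 and 3.72 FPKM (3.75 ± 0.341), 0.873 times Sham (0.748 to 1.01). In both, all 3 H/R libraries lay below all 3 Sham libraries (exact permutation p = 0.1), as was the case for 21.8% of all genes tested.

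By limma no Ifit gene was called after H/R, where 4.25% of all genes tested were called, 1.6% higher and 2.65% lower, at an adjusted p under 0.05 and at least 1.2-fold. At an unadjusted p under 0.05 there were 2, Ifit2 (log2 change -0.10, SE 0.043, adjusted p = 0.155) and Ifit3 (log2 change -0.16, SE 0.048, adjusted p = 0.0622). With limma's voom method on the recovered reads there were 0 calls, and 0 genes at an unadjusted p under 0.05. The adjusted p for Ifit3 ranged from 0.0149 to 0.264 over 18 other settings and was under 0.05 in 2 of them, with at least 5 FPKM as the minimum and without the first H/R library, but in none of them was it called.

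Against H/R itself, EGR1OV was higher by 7.12 (log2 scale, adjusted p = 8.82e-11) for Ifit1, 7.05 (adjusted p = 1.65e-12) for Ifit3, 6.55 (adjusted p = 4.33e-10) for Ifit3b, 4.76 (adjusted p = 7.93e-12) for Ifit2, 4.75 (adjusted p = 7.17e-11) for Ifit1bl1 and 1.74 (adjusted p = 2.92e-07) for Ifit1bl2, all by limma. All 6 were called higher in this comparison, where 11.9% of all genes tested were called higher and 6.94% lower, 18.9% in all. Here too Ifit1bl1 and Ifit1bl2 were tested only because of their EGR1OV level, so their calls are no separate support. No EGR1OV library overlapped an H/R library in any of the 6 genes, and 36.6% of all genes tested had all EGR1OV libraries above all H/R libraries.

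The relative make-up of the family turned over. The summed level of the 6 genes was 12.6 ± 0.654 FPKM in Sham (n = 3), 11.7 ± 0.499 FPKM after H/R and 1257 ± 11.4 FPKM in EGR1OV, the last being 99.6 times the Sham sum. As a part of all recovered reads, Ifit reads made up 0.00363% to 0.0039% of a Sham library, 0.00331% to 0.00358% of an H/R library and 0.286% to 0.29% of an EGR1OV library. The H/R sum was 0.924 times that of Sham (exact permutation p = 0.2).

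Ifit2 held 52.4% ± 2.48 of the summed FPKM in Sham and 15.2% ± 0.715 in EGR1OV. Ifit3 went from 34.1% ± 0.895 to 50.0% ± 0.445, and Ifit1 from 4.22% ± 1.36 to 17.0% ± 0.128. Ifit2 thus gave up its place as the main transcript of the family to Ifit3.

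Ifit3b had a share of 7.38% ± 3.02 in Sham and 15.2% ± 0.344 in EGR1OV, and Ifit1bl1 of 1.2% ± 0.519 and 2.39% ± 0.135. Ifit1bl2 was at 0.677% ± 0.478 and 0.203% ± 0.0242, and without the third Sham library its Sham share was 0.417%. For each of the 6 shares the exact permutation p was 0.1 (adjusted over the 6 shares, 0.1), the smallest this design allows, and shares of 1 sum are not independent of each other. In H/R the shares were 52.2% for Ifit2, 32.1% for Ifit3, 9.04% for Ifit3b, 4.75% for Ifit1, 1.36% for Ifit1bl1 and 0.536% for Ifit1bl2 (adjusted exact permutation p = 0.8 for each).

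**Figure D3:**
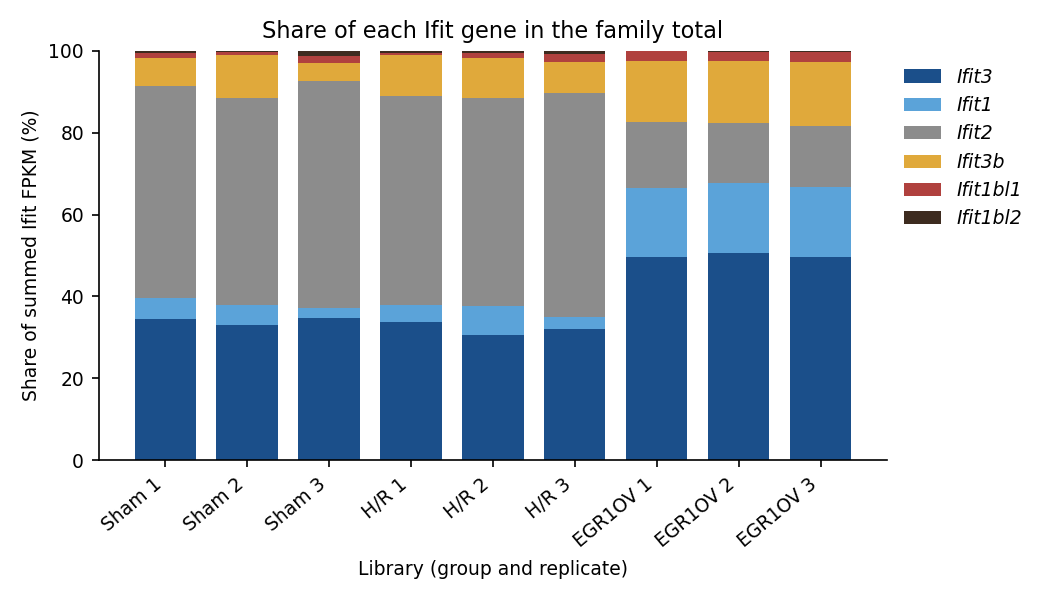
Share of each Ifit gene in the summed Ifit FPKM, in percent, as 1 stacked bar for each of the 9 libraries. On average Ifit2 takes 52.4% of the bar in Sham and 52.2% in H/R, and in EGR1OV Ifit3 takes 50.0% and Ifit2 15.2%.

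The order of the levels changed accordingly. In H/R it was that of Sham, from Ifit2 through Ifit3, Ifit3b, Ifit1 and Ifit1bl1 down to Ifit1bl2, and there only Ifit1bl1 and Ifit1bl2 overlapped (exact permutation p = 0.2). In EGR1OV the order was Ifit3, Ifit1, Ifit2, Ifit3b, Ifit1bl1 and Ifit1bl2. Ifit3 exceeded Ifit1 by 2.95-fold, Ifit1 exceeded Ifit2 by 1.11-fold, Ifit3b exceeded Ifit1bl1 by 6.35-fold and Ifit1bl1 exceeded Ifit1bl2 by 11.8-fold, none of these pairs overlapping. The span of the family was 79.2-fold in Sham, 97.5-fold in H/R and 246-fold in EGR1OV. Its lower end is Ifit1bl2, with 2 to 8 reads in a Sham library and 3 to 5 in an H/R library. A change of the span was not tested.

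The 3 EGR1OV libraries lay close together. Their coefficient of variation was 1.3% for Ifit3, 1.49% for Ifit1, 3.16% for Ifit3b, 4.03% for Ifit2, 6.2% for Ifit1bl1 and 12.5% for Ifit1bl2, in the order of decreasing level except for Ifit2 and Ifit3b. In Sham it was 2.26% for Ifit2 and 2.82% for Ifit3, and between 35.0% and 66.9% for the other 4, which rested on few reads. The paralogs other than Ifit1bl2 thus had a coefficient of variation of at most 6.2% between EGR1OV libraries, but with a single amount of plasmid and a single time of harvest these libraries do not show whether that level is a plateau.

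Paralogs that share sequence can exchange reads. The transcripts of Ifit3 and Ifit3b are 98.0% identical over 1697 bases, and 51.2% of the 50-base stretches of Ifit3 also occur in Ifit3b (31.7% of 100-base and 18.5% of 150-base stretches). The read length and the treatment of reads with several matches are not given in the sources used here, and the split between this pair is therefore uncertain. If each shared read was kept and counted once, the sum of their FPKM depends on that split only through their exon lengths, 1745 and 2000 bp. If shared reads were dropped or counted for both genes, the sum is affected as well. The sum came to 5.24 ± 0.55 FPKM in Sham, to 4.81 ± 0.44 FPKM after H/R and to 819.7 ± 13.4 FPKM in EGR1OV, 156.4 times Sham.

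The ratio of Ifit3 to Ifit3b was 5.23 ± 2.27 in Sham (3.13 to 7.64), 3.6 ± 0.575 in H/R and 3.29 ± 0.0759 in EGR1OV (3.2 to 3.35). The Sham and EGR1OV ratios overlapped (exact permutation p = 0.4), so a difference between their rises was not shown.

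Ifit1 and Ifit1bl2, which start 128 bp apart at the same pair of ISRE cores, did not keep their ratio. Ifit1 exceeded Ifit1bl2 10.0 ± 8.46 times in Sham (2.22 to 19.0) and 84.3 ± 9.84 times in EGR1OV (76.3 to 95.3), with no overlap (exact permutation p = 0.1). The Ifit1bl1 to Ifit1bl2 ratio went from 2.1 ± 0.77 to 11.9 ± 1.69 (exact permutation p = 0.1), and these transcripts are 90.5% identical over 2165 bases. Of the 50-base stretches, 7.13% of those of Ifit1, 6.45% of Ifit1bl1 and 9.34% of Ifit1bl2 occur in another gene, and none of Ifit2. The 30.1 FPKM of Ifit1bl1 and the 213.3 FPKM of Ifit1 in EGR1OV stand beside the 2.55 FPKM of Ifit1bl2, and the part of misassigned reads in that value was not tested.

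The genes beside the cluster gave a small set to compare. Of 15 other genes of the table within 500 kb, 6 were tested, and in EGR1OV 0 were called higher by limma and 1 lower, with 2 at an unadjusted p under 0.05, both lower. Over all genes tested 9.87% were called higher, so 0 of 6 is near that share. With voom on the recovered reads 0 were called higher and 2 lower, Acta2 and Fas. The nearest tested gene was Lipa, the lysosomal acid lipase, 23.2 kb away from the cluster, at 14.2 FPKM in Sham and 12.9 in EGR1OV (log2 change -0.13, adjusted p = 0.157). Slc16a12, a carrier of the monocarboxylate family, 18.4 kb away on the other side, was at 0.407 and 0.283 FPKM and too low to be tested.

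Farther out, Stambpl1 (log2 change 0.15, adjusted p = 0.0961), Pank1 (-0.11, adjusted p = 0.245), a pantothenate kinase, and Kif20b (-0.01, adjusted p = 0.827), a mitotic kinesin, were not called. Fas, the death receptor, had a log2 change of -0.35 in EGR1OV (adjusted p = 0.000696), short of 1.3-fold on the log2(FPKM + 1) scale but called with voom, and of -0.28 after H/R (adjusted p = 0.0149), past the 1.2-fold used there. Acta2, the smooth muscle actin, was called lower in EGR1OV by both methods, from 2947 ± 63.7 to 1131 ± 38.9 FPKM (log2 change -1.38, adjusted p = 3.57e-09). Ch25h, cholesterol 25-hydroxylase and itself an interferon-stimulated gene, was at 0.326 FPKM in Sham and 0.92 in EGR1OV, which was not tested.

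**Figure D4:**
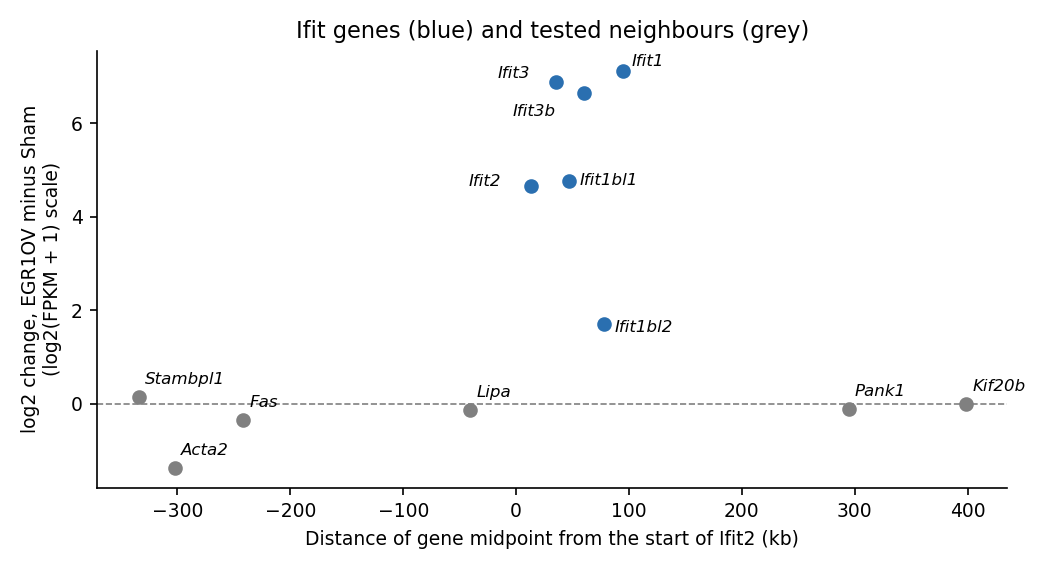
Log2 change on the log2(FPKM + 1) scale in EGR1OV against Sham for the Ifit genes and the tested genes within 500 kb, by the distance of the gene midpoint from the start of Ifit2 in kb. The 6 Ifit genes stand between 1.71 and 7.13, and the 6 neighbours between -1.38 and 0.15.

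The Ifit genes moved with the rest of the interferon pathway in EGR1OV, starting with the ligands. Ifnb1, which encodes interferon beta, was at 0 in all 6 Sham and H/R libraries and at 3.05, 3.02 and 1.90 FPKM in EGR1OV, from 38, 37 and 24 reads (log2 change 1.85, adjusted p = 2.35e-06). It was the only tested gene of 20 ligands listed, 13 of them in the table, and it reached the tested set through the EGR1OV libraries alone, so its test is no separate support for the levels given. Of the untested ones, Ifna4, an interferon alpha, was at 0 in Sham and H/R and at 0.644, 0.327 and 0.636 FPKM in EGR1OV. The third EGR1OV library had the lowest Ifnb1, from 24 reads, and a link between Ifnb1 and Ifit levels was not tested.

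Of 6 interferon receptor genes, 2 were called higher and 0 lower, where 9.87% and 6.51% of all genes tested were. Their median log2 change was 0.17 beside 0.017 over all genes tested. Ifnlr1, for interferon lambda, rose from 2.6 ± 0.0843 to 4.31 ± 0.288 FPKM (log2 change 0.56, adjusted p = 7.29e-05). Ifnar2, for type I interferon, rose from 7.24 ± 0.384 to 9.76 ± 0.551 FPKM (0.39, adjusted p = 0.00134). Ifngr1, for interferon gamma, fell from 50.4 FPKM in Sham to 38.9 in EGR1OV (-0.37, adjusted p = 2.52e-05). Ifngr2 rose from 38.0 to 47.3 FPKM (0.31, adjusted p = 2.23e-05). Both changes were under the fold required.

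Of 6 genes that carry the receptor signal, 5 were called higher (median 1.40), where 9.87% of all genes tested were. They included Stat2 and Irf9, whose products act at the ISRE. Stat2 went from 3.23 ± 0.533 to 70.2 ± 3.51 FPKM (log2 change 4.08, adjusted p = 4.92e-10) and Irf9 from 4.27 ± 0.761 to 22.6 ± 0.421 FPKM (log2 change 2.17, adjusted p = 6.33e-08).

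Of 14 sensors of foreign nucleic acid and inducers of interferon, 11 were called higher (median 1.90), where 9.87% of all genes tested were. Among the 11 were Dhx58 and Zbp1, which were tested only because of their EGR1OV level. Of the other 12 sensors and inducers, 9 were called higher (median 1.47). Irf7, the factor that amplifies interferon production, went from 0.823 ± 0.185 to 223 ± 5.07 FPKM (log2 change 6.95, adjusted p = 1.38e-11). Zbp1, a sensor of Z-form nucleic acid, went from 0.18 to 25.7 FPKM and Dhx58, the RNA sensor LGP2, from 0.388 to 25.6 FPKM. Mavs, Tmem173 and Irf3 were the 3 not called.

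All 3 negative regulators were called higher, where 9.87% of all genes tested were. Usp18, which removes ISG15 from proteins and dampens the type I receptor, went from 1.3 ± 0.553 to 169.1 ± 4.24 FPKM (log2 change 6.23, adjusted p = 4.93e-10). Socs1 went from 2.72 to 7.3 FPKM and Socs3 from 2.41 to 3.48 FPKM, both being inhibitors of JAK kinases. On this scale the changes of Socs1 (1.17) and Socs3 (0.39) were below that of Ifit1bl2.

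Of 19 other interferon-stimulated effectors all 19 were called higher, where 9.87% of all genes tested were. The median log2 change of the 19 effectors was 4.66, equal to the change of Ifit2. Of these, 8 (Cmpk2, Herc6, Mx1, Mx2, Oas1g, Oas2, Oas3 and Rsad2) reached the tested set through the EGR1OV libraries alone and so had to differ, and for the other 11, all called higher, the median was 5.17. Isg15, a ubiquitin-like modifier, reached 869.2 ± 29.5 FPKM from 4.86 ± 2.42 and was above Ifit3 (log2 change 7.29, adjusted p = 7.24e-09). Rsad2, or viperin, went from 0.496 to 160.4 FPKM (6.77, adjusted p = 1.13e-10) and Oasl1 from 0.682 to 92.5 FPKM (5.8, adjusted p = 1.86e-10).

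Genes for the making and binding of the cap and for eIF3 were not called where tested. Of 8 tested genes for cap methylation, cap binding and eIF3, 0 were called by limma in either direction (median log2 change 0.01), with 2 at an unadjusted p under 0.05, and with voom on the recovered reads 0 were called, with 3 at an unadjusted p under 0.05. Over all genes tested 16.4% were called, and 8 genes are too few for 0 to stand apart from that share. Cmtr1, the cap ribose methyltransferase, was too low to be tested, at 0.139, 0.124 and 0.0998 FPKM in Sham and 0.321, 0.38 and 0.279 FPKM in EGR1OV, without overlap. The largest limma changes were those of Eif3e (-0.14, adjusted p = 0.0329), the cap methyltransferase Rnmt (0.12, adjusted p = 0.0183) and Eif3a (-0.12, adjusted p = 0.113). All were under the fold required, and Eif3e and Rnmt missed a call on the fold only. Eif3e was at 25.2 FPKM in Sham and 22.8 in EGR1OV, Rnmt at 8.51 and 9.35, and Eif3a at 133.2 and 122.5.

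Over these lists 41 of 57 tested genes were called in EGR1OV against Sham, where 16.4% of all genes tested were called, and 1 of 57 in H/R against Sham, where 4.25% were. Of the 57, 11 were tested only because of their EGR1OV level and so had to differ. Among the other 46, 30 were called higher in EGR1OV, where 9.87% of all genes tested were. The gene called after H/R was Rtp4, an effector, which fell from 1.29 ± 0.433 to 0.541 ± 0.24 FPKM (log2 change -0.57, adjusted p = 0.0331). The call of Rtp4 was lost in 7 of 18 other settings, with adjusted p from 0.00483 to 0.0922 over all of them. The 7 were no filter on low values, a fit restricted to Sham and H/R, and leaving out EGR1OV replicate 1, H/R replicate 2, H/R replicate 3, Sham replicate 1 or Sham replicate 2.

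**Figure D5:**
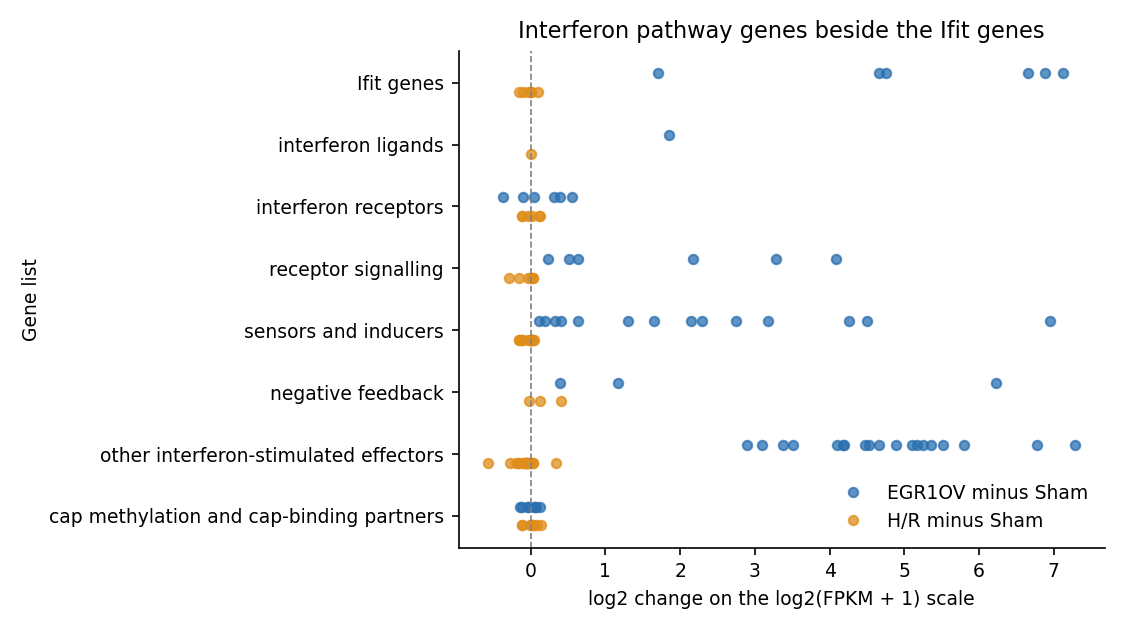
Log2 change on the log2(FPKM + 1) scale in EGR1OV and in H/R against Sham for each tested gene of the Ifit family and of the interferon pathway lists, a point for each gene. In EGR1OV the Ifit genes lie with the interferon-stimulated effectors, whose median is 4.66, and cap-related genes lie near 0, while the H/R points of the lists run from -0.57 for Rtp4 to 0.4 for Socs1.

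The genes whose pattern over the 9 libraries was most like that of the Ifit family were found among 7583 genes outside it with a mean of at least 5 FPKM, by Pearson correlation with the mean Sham-centred profile of the members. They were Oas1g (r = 0.99999), Oas3 (0.99988), Mx2 (0.99981), Psmb10 (0.99976) and Adar (0.99969). Oas1g, Oas3 and Mx2 met that minimum only through the EGR1OV libraries, being at 0.203, 0.0449 and 0.0766 FPKM in Sham. Oas1g and Oas3 belong to the oligoadenylate synthetases, Mx2 is a dynamin-like antiviral GTPase, Psmb10 is a subunit of the immunoproteasome and Adar edits double-stranded RNA. In all, 254 genes had an r of at least 0.99.

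Such an r over 9 libraries reflects the step between EGR1OV and the other groups, which all these genes share. Over the 6 Sham and H/R libraries alone, r was 0.95 for Oas1g, 0.56 for Mx2, 0.52 for Psmb10, 0.45 for Adar and 0.18 for Oas3. Their levels differed widely. Psmb10 went from 7.31 ± 0.267 to 66.0 ± 2.52 FPKM and Adar from 6.55 ± 0.0666 to 30.9 ± 0.8, while Oas3 went from 0.0449 ± 0.0176 to 18.0 ± 0.276.

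Of the marker lists of other cell types, only the leukocyte list had all its tested genes called lower in EGR1OV. The summed level of 12 leukocyte markers was 154.0 to 160.0 FPKM in Sham libraries, 130.3 to 140.4 after H/R and 28.1 to 33.3 with the plasmid, and all 9 tested ones fell in EGR1OV. The 6 endothelial markers also summed to less, 11.1 to 12.0 FPKM in Sham and 8.29 to 8.68 in EGR1OV. Their median log2 change was -0.28, with 1 of 5 tested called lower. The 8 fibroblast markers, mostly Acta2, summed to 2907 to 3021 FPKM in Sham and 1144 to 1213 in EGR1OV. Of 5 tested, 1 was called higher (Col1a2, 7.22 to 10.2 FPKM) and 1 lower (Acta2). Over all genes tested 9.87% were called higher and 6.51% lower. With 5 genes tested, 1 call cannot be set apart from these shares. The EGR1OV libraries, highest in Ifit genes, were thus lowest in leukocyte markers, and the part of the cell make-up in the Ifit levels was not tested.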

How the data were processed

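Primary renal tubular epithelial cells of C57BL/6 mice were profiled by RNA sequencing in 9 libraries, 3 each of Sham, H/R and EGR1OV, grouped by their labels. The authors deposited 1 table of FPKM per gene, scaled to mapped fragments and transcript length. Bowtie2 2.2.3, HISAT2 2.1.0, TopHat2 and the build mm9 stand in the submitters' processing notes, whereas 99.8% of the gene IDs are found in GENCODE M21 and 94.6% of the positions equal it, so that coordinates here are GRCm38. The aligner used for these values, the counting of multi-mapping reads and strand, and the read length are not given in the sources used here. Symbols of 26 genes that had turned into dates were restored from their IDs.

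The 13985 genes that averaged 0.5 FPKM or more across all libraries were tested on log2(FPKM + 1) with limma 3.58.1 in R 4.3.3 (lmFit, eBayes with trend, all libraries in 1 fit, two-sided, Benjamini-Hochberg over all genes tested). A call needed an adjusted p under 0.05 and 1.3-fold (EGR1OV against Sham or H/R) or 1.2-fold (H/R against Sham), the folds used in the study for its comparisons with Sham. Single values were compared by two-sided exact permutation tests in scipy 1.17.1 (smallest p 0.1). Whole reads were recovered from the FPKM steps and GENCODE M21 exon lengths. Of 162962 such values in the range checked, 94% were whole within 0.02. Ratio intervals are exact conditional binomial 95% intervals on these reads and cover counting error only, and 3 reads was taken as the floor of detection. Libraries of equal replicate number correlated from -0.195 to 0.263 in their deviations from the group means and were not treated as pairs. The procedure was tested on simulated data.

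The Ifit genes, the pathway lists and the marker lists were chosen with earlier results of these data known. Named genes were the 6 members, Egr1, the 3 genes of each list with the largest change in EGR1OV, Ifnb1, the 5 genes most correlated with the family, and the tested genes within 500 kb. Some items under this rule are not reported here. Ifna4, Rtp4, Slc16a12, Ch25h, Cmtr1, the 3 sensors not called, effectors tested only through EGR1OV and single markers were named after their values were seen. Alternatives were a pseudocount of 0.1, other filters, median-ratio scaling, quantile normalization, a fit without trend, a fit of the compared groups only, the replicate number as a block, voom on recovered reads, shares of reads, and leaving out each library.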

Additional observations from a re-analysis of the deposited data

Results flagged for a closer look

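All 6 Ifit genes stood out because their change against Sham differed between the 2 treatments, tested directly as EGR1OV against H/R, which cancels the shared Sham libraries. The difference on the log2(FPKM + 1) scale was 7.12 for Ifit1, 4.75 for Ifit1bl1, 1.74 for Ifit1bl2, 4.76 for Ifit2, 7.05 for Ifit3 and 6.55 for Ifit3b (limma, adjusted p from 1.65e-12 for Ifit3 to 2.92e-07 for Ifit1bl2), with all 3 EGR1OV libraries above all 3 H/R libraries in each, as in 36.6% of all genes tested. As ratios of mean FPKM, EGR1OV exceeded H/R 387.7 times for Ifit1, 191.0 times for Ifit1bl1, 40.9 times for Ifit1bl2, 31.5 times for Ifit2, 167.5 times for Ifit3 and 181.2 times for Ifit3b. Ifit1bl1 and Ifit1bl2 reached the tested set through the EGR1OV libraries alone, so their tests are no separate support for these levels.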

How the results depend on the processing

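In EGR1OV against Sham and against H/R, each of the 6 genes was called higher under every alternative tried, except that a minimum mean of 5 FPKM left 5 of them to test, all called. Where a minimum mean applied, Ifit1bl1 and Ifit1bl2, when tested, reached it through the EGR1OV libraries alone. The log2 change against Sham ranged from 7.03 to 8.67 for Ifit1, 4.69 to 7.59 for Ifit1bl1, 1.65 to 4.99 for Ifit1bl2, 4.62 to 4.85 for Ifit2, 6.85 to 7.19 for Ifit3 and 6.5 to 7.73 for Ifit3b. After H/R 0 were called under any alternative, and 7 of 107 log2 changes turned sign (Ifit1 to -0.1 without H/R replicate 2 and to -0.1 without Sham replicate 3, Ifit1bl1 to -0.05 without H/R replicate 3 and to -0.02 without Sham replicate 2, Ifit3b to -0.05 without Sham replicate 3, and Ifit1bl2 to 0.01 without Sham replicate 3 and to 0.02 with quantile normalization), all at low levels. Leaving out 1 library moved these H/R changes within -0.1 to 0.11 for Ifit1, -0.05 to 0.06 for Ifit1bl1, -0.06 to 0.01 for Ifit1bl2 and -0.05 to 0.27 for Ifit3b. The cause was not tested. With the replicate block, 6, 0 and 6 Ifit genes were called in EGR1OV against Sham, H/R against Sham and EGR1OV against H/R, and the pathway counts were 41 in EGR1OV and 1 in H/R. The 1 pathway gene called after H/R became 2 at a mean of at least 5 FPKM, 0 without a filter, 0 with only the groups compared, 3 with voom, and 0 to 3 on leaving out a library. It was 0 without EGR1OV replicate 1, H/R replicate 2, H/R replicate 3 or Sham replicate 1, 3 without Sham replicate 2 and 2 without Sham replicate 3. Counted in reads, which weights long transcripts more, Ifit2 made up 69.5% and Ifit3 20.1% of Sham, and in EGR1OV Ifit3 made up 38.2%, Ifit2 26.2%, Ifit1 19.7%, Ifit3b 13.3% and Ifit1bl2 0.299%. Depth limits Ifit1bl1 and Ifit1bl2, which had 2 to 10 reads in each Sham and H/R library.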
